A study of Mus musculus with 16 samples.

Results

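The nuclear genes of the respiratory chain and of the mitochondrial ribosome were followed through a map of BMAL1 binding in mouse liver. They were taken by gene name from the merged table of BMAL1 peaks: every interval whose nearest protein-coding gene begins with Nduf, Sdh, Uqcr, Cox, Atp5, Mrpl or Mrps, at any distance, with a further gene not reported here. This gave 38 of the 7043 intervals (0.54%), nearest to 33 genes. The mitochondrially encoded subunits were not among them. Counted by the same names, 187 protein-coding genes of the mouse RefSeq annotation belong to these families, so 17.6% of them had a peak of at least 1 library assigned to them. Over all 21900 protein-coding genes that share was 16.3%.

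BMAL1 was immunoprecipitated from liver of C57bl6 mice aged 8 to 16 weeks, in males and females, under a control or a misalignment protocol, at ZT0 or ZT12 (hours after lights on in a cycle of 12 h light and 12 h dark). All 8 groups had been moved from chow to a diet with 42% of calories from fat when the protocol began. Each group had 1 BMAL1 library, made from liver pooled over 3 to 4 mice, so no difference between groups can be set against replicate error and no test was run. What the misalignment protocol consisted of is not given in the sources used here. The 8 IgG libraries were not analysed here.

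The respiratory chain passes electrons from NADH and succinate to oxygen through complexes I to IV, and the proton gradient this builds drives the ATP synthase, complex V. A few subunits are made inside the mitochondrion by its own ribosome, whose proteins are all encoded in the nucleus, so the nuclear and mitochondrial genomes have to be expressed together. Hepatocytes are rich in mitochondria and oxidise much of the fat they take up. BMAL1 pairs with CLOCK and binds the E-box, whose best known form is CACGTG, in genes of the circadian clock and of its outputs, and mitochondrial respiration in liver is known to follow a daily rhythm.

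The sequences at 6 of the sites are shown first, because the results on E-boxes and summits turn on them. They were taken from RefSeq promoter windows on GRCm38.p6. A window runs from 250 bases before to 50 bases after a transcription start site (TSS). The promoter of Ndufa6, the strongest and most often called site of the set, is shown whole. Its capitals mark the 50 bases spanned by the 4 BMAL1 summits there, and it holds no CACGTG. It lies at chr15:82354242-82354541 on the minus strand.
Ndufa6 promoter: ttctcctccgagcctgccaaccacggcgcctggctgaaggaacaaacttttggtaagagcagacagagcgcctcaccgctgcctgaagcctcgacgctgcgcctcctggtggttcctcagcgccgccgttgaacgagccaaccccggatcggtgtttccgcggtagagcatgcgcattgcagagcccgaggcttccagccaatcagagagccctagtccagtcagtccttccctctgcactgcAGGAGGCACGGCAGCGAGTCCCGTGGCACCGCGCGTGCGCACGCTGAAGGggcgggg
The other 5 are the stretches around the CACGTG closest to the summit, at the 5 intervals with a CACGTG in a window that holds a summit. The Pnpla7 window at the Mrpl41 interval holds a further CACGTG, 82.5 bp from the summit, which is not printed. In them the capitals mark the E-box. They are the stretch at Ndufaf4 (chr4:24898085-24898180, minus strand, in the window of the opposite gene Gm46848), at Atp5sl (chr7:25619347-25619442, plus strand), at Mrpl36 (chr13:73330921-73331016, plus strand), at the interval assigned to Cox7b (chrX:106027092-106027187, plus strand, in the window of Atp7a) and at the interval assigned to Mrpl41 (chr2:24976012-24976082, plus strand, in the window of Pnpla7).
Ndufaf4 site: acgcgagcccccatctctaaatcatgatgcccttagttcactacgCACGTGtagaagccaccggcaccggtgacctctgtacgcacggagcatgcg
Atp5sl site: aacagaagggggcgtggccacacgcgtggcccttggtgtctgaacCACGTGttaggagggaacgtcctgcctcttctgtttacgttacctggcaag
Mrpl36 site: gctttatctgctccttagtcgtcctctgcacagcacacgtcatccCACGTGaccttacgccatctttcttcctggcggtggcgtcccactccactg
Cox7b site: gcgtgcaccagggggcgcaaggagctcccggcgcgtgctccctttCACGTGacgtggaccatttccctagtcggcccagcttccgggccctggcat
Mrpl41 site: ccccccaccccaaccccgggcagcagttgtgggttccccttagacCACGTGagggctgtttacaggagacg

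The libraries differed widely in the number of peaks the authors called, and this bears on every count below. The lists of male misaligned ZT12, male misaligned ZT0 and female misaligned ZT0 held 5542, 1864 and 1330 peaks, and the other 5 held 141 to 373. Read depth is unknown. The smallest local background of any peak, a stand-in for depth times fragment length, was 4.25 to 6.16 fragments over the 8 lists, and the weakest peak of a list had a -log10 p of 4.15 to 5.52. The 3 long lists had the 3 lowest of these limits, at 4.15, 4.55 and 4.75. Their smallest background was 4.25, 4.32 and 5.06 fragments in the same order, against 4.39 to 6.16 in the other 5. Both values are minima over the called peaks, so they are not independent of list length. Peak calls give no expression markers, so the liver label could not be checked from them. The clock targets Per1, Per2, Nr1d1, Nr1d2, Dbp and Tef were each nearest to a peak in all 8 libraries.

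BMAL1 calls at these genes were almost all in 3 misaligned libraries. Male misaligned ZT12 held 28 of the 38 intervals, male misaligned ZT0 held 13, female misaligned ZT0 held 8 and male control ZT0 held 1. The other 4 libraries, male control ZT12, female control ZT0, female control ZT12 and female misaligned ZT12, held none. Shares of the 38 are given with 95% limits (exact, Clopper-Pearson), for counting error alone. The share was 73.7% (56.9 to 86.6%) in male misaligned ZT12, where 78.7% of all 7043 intervals were called. It was 34.2% (19.6 to 51.4%) in male misaligned ZT0, where 26.4% of all intervals were called, and 21.1% (9.55 to 37.3%) in female misaligned ZT0, against 18.8%. In male control ZT0 it was 2.63% (0.0666 to 13.8%) against 5.21%. For the libraries with no call the interval reached 9.25%, and the shares of all intervals called there were 4.06% in male control ZT12, 3.17% in female control ZT0, 1.96% in female control ZT12 and 3.08% in female misaligned ZT12. In every library the share of all intervals lay inside the interval of the members' share, so the members' shares could not be told from those of the whole map at this number of intervals.

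**Figure D1:**
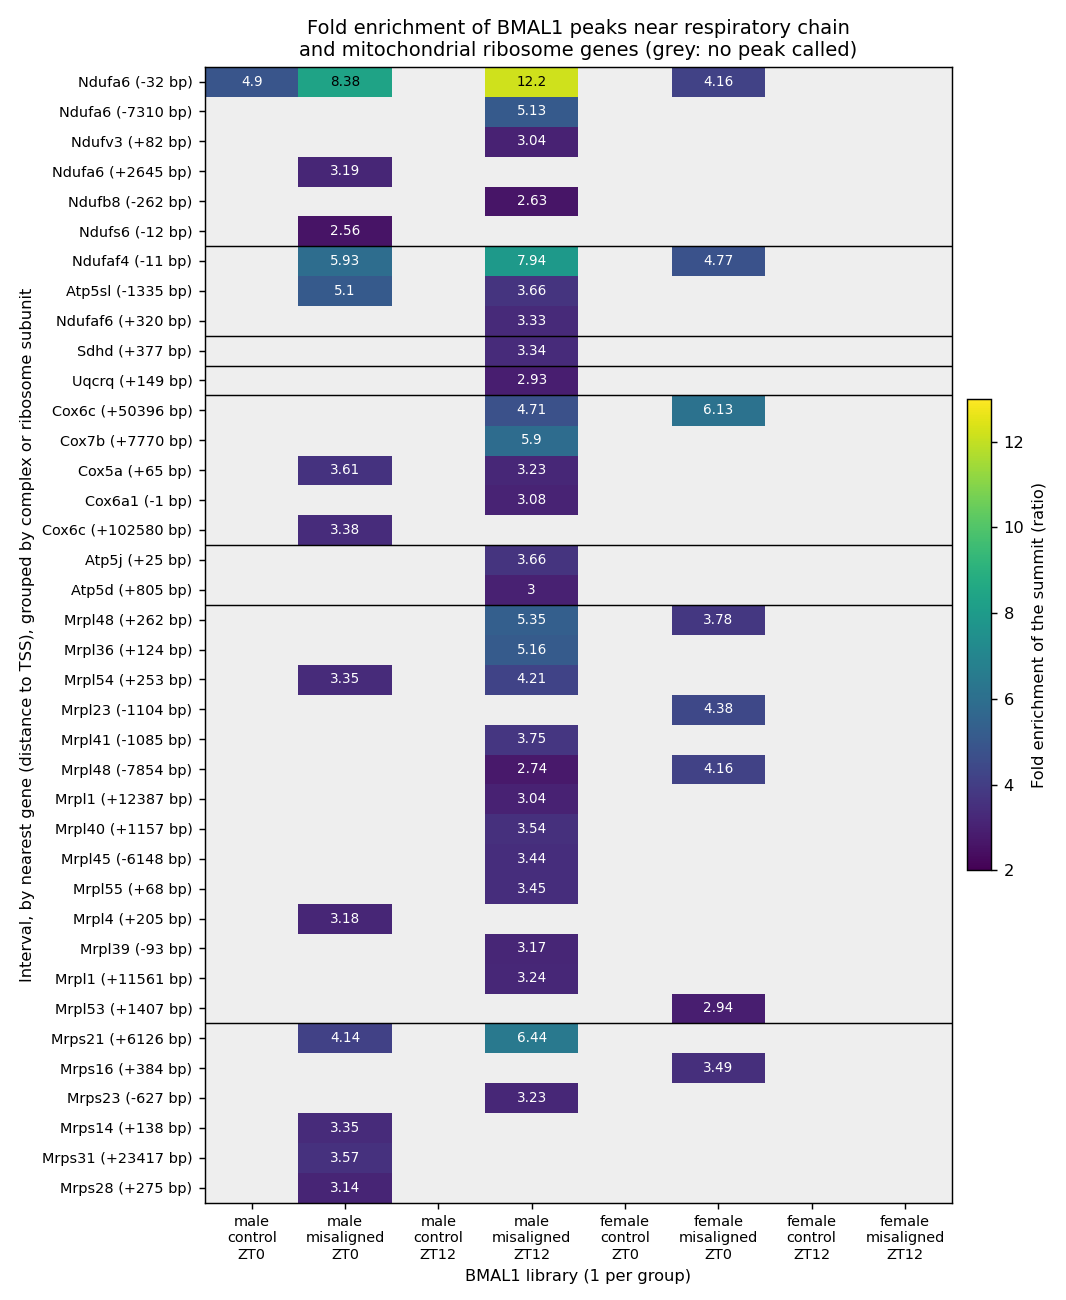
The 38 intervals (rows, by nearest gene and distance to the TSS in bp, with lines between complexes and ribosome subunits) in the 8 BMAL1 libraries (columns). A coloured cell is a called peak with the fold enrichment of its summit, and grey is no call. The coloured cells lie in 4 columns, and the Ndufa6 interval at -32 bp is the only row with a cell in a control library.

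**Figure D2:**
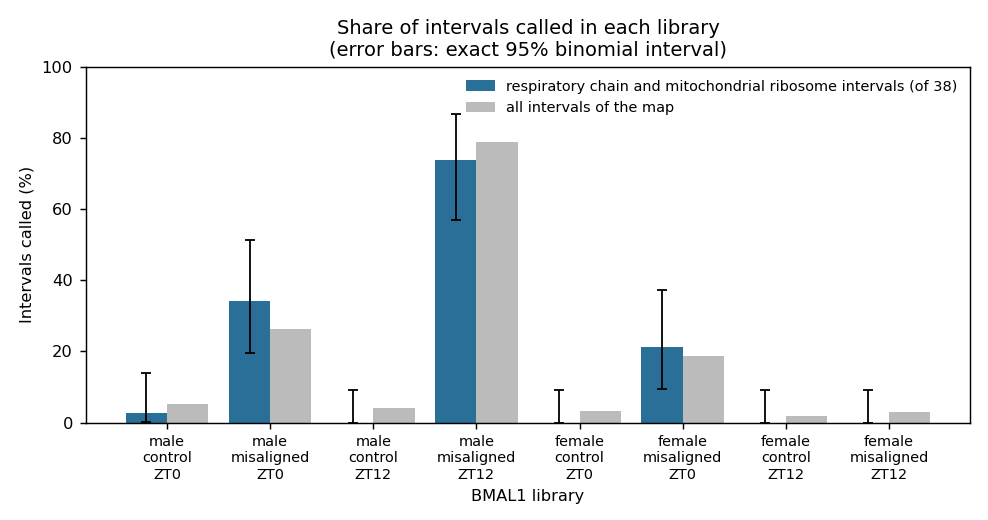
Percentage of the 38 member intervals (with exact 95% intervals for counting error) and of all 7043 intervals called in each of the 8 libraries, 1 library per group. Members and all intervals were highest in male misaligned ZT12, at 73.7% and 78.7%.

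Counted as genes, the picture was the same. Of the 187 family genes, 25 (13.4%) had a peak of male misaligned ZT12 assigned to them, where this held for 13.3% of all protein-coding genes. In male misaligned ZT0 there were 12 (6.42%, against 5.27%), in female misaligned ZT0 there were 7 (3.74%, against 3.98%), and in male control ZT0 there was 1 (0.535%, against 1.08%). In the 4 libraries with none, the shares of all protein-coding genes were 0.717% in male control ZT12, 0.616% in female control ZT0, 0.365% in female control ZT12 and 0.612% in female misaligned ZT12. The families were therefore the nearest genes to BMAL1 peaks about as often as protein-coding genes in general.

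The study asks how misalignment acts in each sex, and the comparison for it is misaligned against control at the same sex and time. In males at ZT0, 12 member intervals were called in the misaligned library and not in the control (22.6% of all intervals were). None was called the other way (1.42% of all), and 1, the Ndufa6 promoter, in both (3.79% of all). In males at ZT12, 28 were called in misaligned only (75.5% of all), none in control only (0.895% of all) and none in both (3.17% of all). In females at ZT0, 8 were called in misaligned only (17.6% of all), none in control only (1.95% of all) and none in both (1.22% of all). In females at ZT12 no member was called in either library. Of all intervals, 2.09% were called there in misaligned only, 0.965% in control only and 0.994% in both.

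The counts were also taken with lists of equal length. When both lists of a pair were shortened to the same number of strongest peaks, misaligned-only intervals fell to 1 in males at ZT0, the Ndufaf4 promoter (373 peaks kept per list). They fell to 1 in males at ZT12, the Ndufa6 promoter (290 kept), and to 0 in females at ZT0 (225 kept). The share of all intervals called in misaligned only was then 2.54%, 2.17% and 2.37%. At ZT12 in females, with 141 peaks kept, there was none, against 1.04% of all. Control-only intervals stayed at 0 in all 4 pairs. The share of all intervals was 2.5% in males at ZT0, 2.12% in males at ZT12, 2.37% in females at ZT0 and 1.04% in females at ZT12. Only the control list of males at ZT0 held a member, so in the other pairs this 0 was fixed before shortening. The Ndufa6 promoter was still called in both male ZT0 libraries, as were 2.71% of all intervals. Most of the misaligned-only member intervals were therefore at sites below the strongest 225 to 373 peaks of the long lists. Lists of equal length must give nearly equal misaligned-only and control-only counts over all intervals, such as 179 and 176 in males at ZT0. The fall was thus largely fixed in advance, and it cannot tell an effect of list length from one of treatment.

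Over both sexes and times, 37 of the 38 intervals (97.4%) were called in at least 1 misaligned library and in no control library, against 90.0% of all intervals. Most were seen once: 29 of the 38 were called in exactly 1 library (76.3%, against 78.5% of all intervals) and 7 in 2 libraries (18.4%, against 12.2%). In 3 libraries 1 was called (2.63%, against 4.53%), and in 4 libraries 1 (2.63%, against 2.13%). The intervals seen in male misaligned ZT12 alone numbered 19, or 50% against 58.3% of all intervals. Male misaligned ZT0 alone held 7 and female misaligned ZT0 alone held 3, and the same was not counted over all intervals. The 2 male misaligned libraries shared 6 members, which was 46.2% of the members called at ZT0 (53.0% for all intervals) and 21.4% of those called at ZT12 (17.8% for all). Of the 8 members of female misaligned ZT0, 5 were also called in male misaligned ZT12 (62.5%, against 64.9% for all).

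Complex I, the NADH dehydrogenase that feeds electrons from NADH into the chain, had the strongest sites of the set. Its accessory subunit Ndufa6, of the LYR-motif family, carried a peak over its TSS (chr15:82353939-82354707, annotated promoter-TSS, -32 bp) in 4 libraries. In male control ZT0 the summit held 40 fragments over a local background of 7.37, a fold enrichment of 4.90 (3.53 to 6.63; this and the intervals that follow are exact Poisson 95% limits for counting error only). In male misaligned ZT0 it held 83 fragments over 9.02, a fold of 8.38 (6.70 to 10.4). In male misaligned ZT12 it held 124 over 9.27, a fold of 12.2 (10.1 to 14.5), and in female misaligned ZT0 it held 54 over 12.2, a fold of 4.16 (3.14 to 5.40). Fold and -log10 q depend on the depth and background of each library, so each peak was placed within its own list. By -log10 q (12.1, 44.7, 87.1 and 13.8 in the order just given) it ranked 164 of 373, 52 of 1864, 56 of 5542 and 322 of 1330. The lists differ in length, and a longer list adds weaker peaks below a site, so these places are not a comparison between libraries. The 4 summits fell within 50 bases of each other, 3 of them just downstream of the RefSeq TSS (the capitals in the sequence above).

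Ndufa6 had a pair of further intervals. An intergenic peak at -7310 bp (chr15:82361373-82361830) was called in male misaligned ZT12, with a fold of 5.13 and a -log10 q of 19. A weak peak in intron 1, 2645 bp downstream of the TSS, was called in male misaligned ZT0, with a fold of 3.19 and a -log10 q of 2.91. Neither was called in a second library.

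The assembly factors of complex I held the next most recurrent site. Ndufaf4, which helps build the complex and is not part of it, had a peak over its TSS (chr4:24897902-24898429, promoter-TSS, -11 bp) in 3 libraries, all misaligned. Its fold was 4.77 (3.58 to 6.22) in female misaligned ZT0, 5.93 (4.22 to 8.11) in male misaligned ZT0 and 7.94 (6.03 to 10.3) in male misaligned ZT12, with 52, 37 and 56 fragments at the summit. The -log10 q of 15.9, 14.4 and 29.6 placed it at rank 269 of 1330, 246 of 1864 and 380 of 5542. That is percentile 79.8, 86.8 and 93.2 of the lists, so it stood high in each of them.

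Atp5sl, named for a resemblance to an ATP synthase subunit, is listed in RefSeq as Dmac2, a distal membrane arm assembly component, and is counted here with complex I assembly. Its interval (chr7:25619187-25619950) was given as -1335 bp by the authors' annotation, but the strongest summit lay 10 bp from a RefSeq TSS of the gene. It was called in both male misaligned libraries, with a fold of 5.10 and a -log10 q of 8.95 at ZT0 and a fold of 3.66 and a -log10 q of 11.5 at ZT12. In all, 3 of the 9 complex I assembly genes of the name rule and 4 of the 40 subunit genes were nearest to a peak. The remaining complex I genes (Ndufaf6, Ndufb8, Ndufs6 and Ndufv3, named to complete the count) each had 1 peak within 1 kb of the TSS, in 1 male misaligned library. Their folds ran from 2.56 to 3.33, and the -log10 q of the weakest, at Ndufs6, was 1.39, which placed it 1852 of 1864.

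Complexes II and III had 1 site each, both in male misaligned ZT12. Sdhd, a membrane anchor of succinate dehydrogenase, had a broad peak (chr9:50602881-50604064, 377 bp, promoter-TSS) with a fold of 3.34 (2.2 to 4.86) and a -log10 q of 4.28. The same peak covers the start of Timm8b, a small chaperone of mitochondrial import on the opposite strand, whose TSS was 5 bp from the summit against 47 bp for that of Sdhd. Uqcrq, a small subunit of the cytochrome bc1 complex, had a peak at 149 bp (chr11:53430246-53431118) with a fold of 2.93 (2.02 to 4.12) and a -log10 q of 4.19. They were 1 of 4 complex II subunit genes (25.0%) and 1 of 8 complex III subunit genes (12.5%), against 16.3% of all protein-coding genes. None of the 4 complex II assembly genes was nearest to a peak.

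Complex IV, cytochrome c oxidase, had intervals assigned to 4 of its 18 nuclear subunit genes (22.2%, against 16.3% of all protein-coding genes). None was assigned to the 9 Cox-named assembly genes. A RefSeq TSS of Cox15 was nevertheless within 1 kb of a peak in male misaligned ZT0. That of Cox20 was so in male misaligned ZT12 and female misaligned ZT0. Cox5a, a matrix-side subunit, had a peak at 65 bp (chr9:57520948-57521646) in both male misaligned libraries. The fold was 3.61 (2.42 to 5.19) at ZT0 and 3.23 (2.24 to 4.52) at ZT12, with -log10 q of 4.91 and 5.35. The strongest complex IV value was far from its gene. An interval assigned to Cox6c, 50396 bp downstream of its TSS and inside intron 54 of another gene (chr15:35887406-35887820), had a fold of 6.13 (4.39 to 8.36) and a -log10 q of 15.4 in female misaligned ZT0. In male misaligned ZT12 the same interval had a fold of 4.71 (3.25 to 6.63) and a -log10 q of 9.53. A weaker interval, 102580 bp from Cox6c, was called in male misaligned ZT0 with a -log10 q of 2.41. The interval assigned to Cox7b (chrX:106026971-106027351, male misaligned ZT12, fold 5.90, 4.04 to 8.34, -log10 q 12.2) sits on the promoter of Atp7a, a copper-transporting ATPase. Its summit was 89 bp from the TSS of Atp7a and 11435 bp from that of Cox7b. Of the strongest complex IV sites, then, only that of Cox5a lay at the start of the named gene. The remaining one, at the TSS of Cox6a1, had a -log10 q of 2.59 in male misaligned ZT12.

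Complex V had intervals assigned to 2 of 17 genes (11.8%, against 16.3% of all protein-coding genes), both in male misaligned ZT12. Atp5j, coupling factor 6 of the ATP synthase stalk, had a peak at 25 bp (chr16:84834681-84835279) with a fold of 3.66 (2.44 to 5.30) and a -log10 q of 5.35. It shares its promoter region with Gabpa, whose product is an ETS factor known to bind promoters of nuclear respiratory genes. Atp5d, the delta subunit of the F1 part, was assigned a peak at 805 bp (chr10:80139201-80139674) with a fold of 3.00 (1.89 to 4.55) and a -log10 q of 2.58. That summit was 140 bp from the RefSeq TSS of Cbarp and 3048 bp from that of Atp5d.

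The large subunit of the mitochondrial ribosome had 14 intervals assigned to 12 of 49 genes (24.5%, against 16.3% of all protein-coding genes). Mrpl48 had 2, and both were called in female misaligned ZT0 and male misaligned ZT12. At the interval at 262 bp, in intron 1 (chr7:100582572-100583054), the fold was 3.78 (2.74 to 5.09) in females and 5.35 (4.06 to 6.92) in males, with -log10 q of 8.78 and 20.3. At the interval the authors placed at -7854 bp (chr7:100590746-100591112) the fold was 4.16 in females and 2.74 in males, with -log10 q of 5.86 and 2.99, and the summit of the stronger peak was 372 bp from a RefSeq TSS of Mrpl48. The higher of the 2 sites was therefore the same in both libraries by -log10 q, and not by fold.

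Mrpl36 had a peak at 124 bp (chr13:73330706-73331560) in male misaligned ZT12, with a fold of 5.16 (3.69 to 7.03) and a -log10 q of 13.1. Mrpl54 had a peak at 253 bp, in intron 1 (chr10:81266382-81266961), in both male misaligned libraries. Its fold was 3.35 (2.21 to 4.88) at ZT0 and 4.21 (3.02 to 5.71) at ZT12, with -log10 q of 3.83 and 10.4. The other 9 large-subunit genes were each called in 1 library, with -log10 q from 3.25 to 8.38.

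The small subunit had 6 intervals assigned to 6 of 29 genes (20.7%, against 16.3% of all protein-coding genes). Mrps21 had the strongest, 6126 bp into the gene in intron 2 (chr3:95864901-95865581), called in both male misaligned libraries. Its fold was 4.14 (2.78 to 5.95) at ZT0 and 6.44 (4.67 to 8.68) at ZT12, with -log10 q of 6.28 and 18.1. Mrps16 (chr14:20393012-20393330, 384 bp, intron 1) was called in female misaligned ZT0 alone, with a fold of 3.49 (2.32 to 5.05) and a -log10 q of 4.40. Mrps23 (chr11:88203639-88203996, -627 bp, promoter-TSS) was called in male misaligned ZT12 alone, with a fold of 3.23 (2.10 to 4.78) and a -log10 q of 3.64. The remaining 3 were called in male misaligned ZT0 alone, with -log10 q from 2.82 to 3.27. By library, 4 of the 29 small-subunit genes had a call in male misaligned ZT0 and 2 in male misaligned ZT12. Of the 49 large-subunit genes 2 and 9 did, beside 5.27% and 13.3% of all protein-coding genes, and whether the subunits differ was not tested.

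Within their lists, most member peaks were of ordinary or low strength. The percentile by -log10 q among all peaks of the same list had a median of 36.3 in male misaligned ZT0 (4 of 13 above the middle of the list) and 43.6 in male misaligned ZT12 (11 of 28). In female misaligned ZT0 the median was 58.0, with 5 of 8 above the middle. The median -log10 q of members and of all peaks was 3.83 and 4.92 in the misaligned males at ZT0, 4.82 and 5.59 in those at ZT12, and 8.58 and 7.18 in the misaligned females at ZT0. Median fold was 3.38 against 3.73, 3.45 against 3.68, and 4.16 against 3.91 in the same order. None of the 50 member peaks lay in a region of high local background, the highest being 3.16 times the lowest of its list. Such peaks were few in the long lists as a whole, so this does not set the members apart. They numbered 27 of 1864 in male misaligned ZT0, 26 of 5542 in male misaligned ZT12 and 27 of 1330 in female misaligned ZT0. In male control ZT0 they were 28 of 373. When all lists were held to the highest of their lower limits, a -log10 p of 5.52, 12 of 13 member peaks remained in male misaligned ZT0, and all of the 28, 8 and 1 in the other lists with a member.

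**Figure D3:**
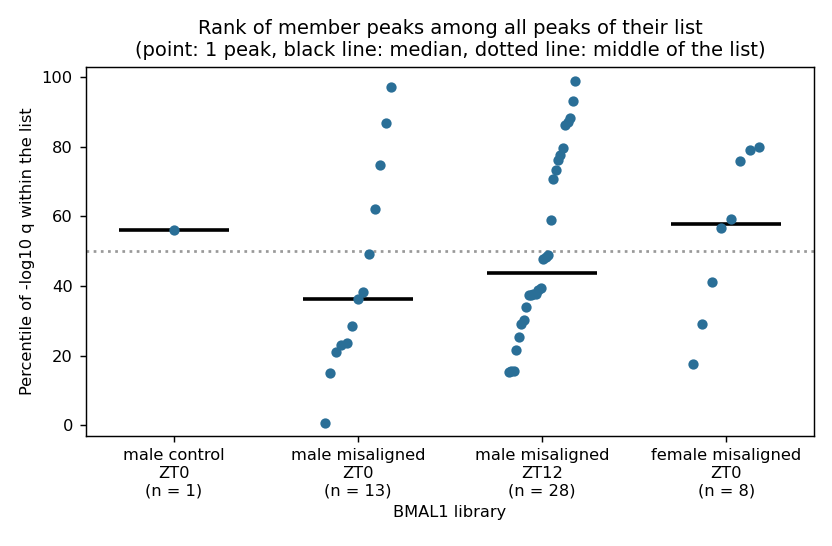
Percentile of each member peak by -log10 q among all peaks of its own list, for the 4 libraries with a member call (a point is a peak, a black line the median, the dotted line the middle of the list, n the member peaks). The medians were 36.3 in male misaligned ZT0, 43.6 in male misaligned ZT12 and 58.0 in female misaligned ZT0, and the Ndufa6 promoter reached 97.2 and 99.0 in the male misaligned libraries.

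The intervals lay closer to gene starts than other intervals did. Of the 38, 22 (57.9%, 40.8 to 73.7%) were within 1 kb of the TSS in the authors' annotation, against 1663 of the 4695 other intervals with a protein-coding nearest gene (35.4%, 34.1 to 36.8%). Within 10 kb the shares were 86.8% and 62.8%, and the median distance was 380 bp against 4630 bp. Of the 22, 7 were upstream and 15 at or downstream of the TSS. By annotation, 18 of the 38 were promoter-TSS (47.4%, against 39.6%), 13 intronic, 3 exonic, 1 at a transcription end and 3 intergenic (7.89%, against 20.1%). Intervals are not replicates, so the limits cover counting error only.

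Taken by library, the members stood nearer to the TSS than other intervals beyond counting error in male misaligned ZT12 only. The share within 1 kb there was 60.7% (17 of 28, 40.6 to 78.5%) against 34.4% of other intervals. In male misaligned ZT0 it was 61.5% (8 of 13, 31.6 to 86.1%) against 41.0%, and in female misaligned ZT0 it was 50% (4 of 8, 15.7 to 84.3%) against 52.4%. Whether the libraries differ in this was not tested. Measured from the summit to the closest RefSeq TSS of the same gene, 20 of the 31 intervals with such a TSS were within 1 kb (64.5%, 45.4 to 80.8%), against 43.2% of other intervals.

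**Figure D4:**
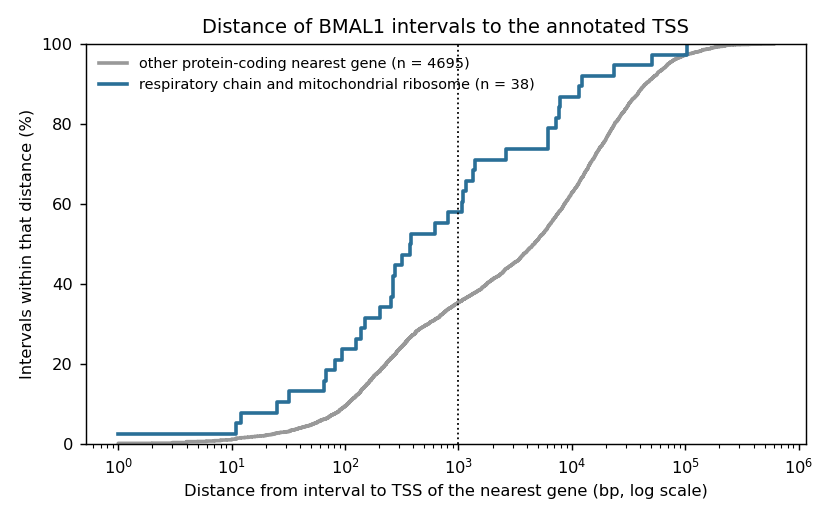
Cumulative percentage of intervals by absolute distance to the TSS of the nearest gene (log axis, bp), for the 38 member intervals and the 4695 other intervals with a protein-coding nearest gene. The dotted line marks 1 kb, where the curves stand at 57.9% and 35.4%.

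The nearest gene by name was not always the gene whose start lay closest. For 5 of the 38 intervals the RefSeq TSS of another protein-coding gene was within 1 kb of the summit: Timm8b beside Sdhd, Atp7a beside Cox7b, Cbarp beside Atp5d, Gabpa beside Atp5j and Pnpla7, a lysophospholipase, beside Mrpl41. For 4 of the 31 intervals that could be compared, that other start was the closer. Only 17492 of the 21900 protein-coding genes had a RefSeq window, so the 5 are a lower limit. The authors' annotation, for one, places the Ndufv3 interval at the promoter of Wdr4, which is not among the 5. In the other direction, 6 family genes had a RefSeq TSS within 1 kb of a peak but were not among the members called in that library. The name under which the authors' table lists those peaks was not looked up. They were Cox15, Mrps18b and Ndufa11 in male misaligned ZT0, Mrps18b, Mrps27, Cox20 and Atp5md in male misaligned ZT12, and Cox20 in female misaligned ZT0.

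In the members' own promoters, the share with an E-box could not be told from that of other genes. Windows were found in RefSeq for 27 of the 33 member genes. Among genes with a peak within 1 kb, 1 of the 17 with a window held CACGTG (5.88%, 0.149 to 28.7%), which reads the same on both strands. The share was 7.58% in the 132 family genes with a window and no peak, and 8.91% in all 17492 protein-coding genes with a window. Both lie inside the limits of the members' share. With the variant CACGTT, on either strand, counted too, the shares were 17.6%, 13.6% and 13.7%. The Ndufa6 window, under the strongest peak, held neither form. Among member genes with a peak within 10 kb, 2 of the 25 with a window held CACGTG (8.00%). The further gene was Atp5sl, left out at 1 kb because the authors place its interval at -1335 bp.

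The distance from summit to E-box was measured where both fell in the same promoter window. Counting any RefSeq window that a summit fell in, whichever gene it belongs to, 12 member intervals had a summit in a window and 5 of these held CACGTG (41.7%, 15.2 to 72.3%). Counted in the same way over the whole map, 371 of the 1242 intervals with a summit in a window held it (29.9%, 27.3 to 32.5%), a share inside the limits of the members' share. Of all windows, with or without a summit, 7.15% held it. The 8 peaks at the 5 sites had their summits 3.5 to 48.5 bp from the centre of the nearest CACGTG, with a median of 9.5 bp. At Ndufaf4, whose E-box ends just past the gene's own window, the distances were 17.5 bp in female misaligned ZT0, 9.5 bp in male misaligned ZT0 and 3.5 bp in male misaligned ZT12. At Atp5sl they were 48.5 bp in male misaligned ZT0 and 9.5 bp in male misaligned ZT12. In male misaligned ZT12 the distance was 15.5 bp at Mrpl36 and 4.5 bp at both the Cox7b and the Mrpl41 interval. For all 700 peaks with the summit in a window holding CACGTG the median was 27.5 bp, and 69.9% were within 50 bp. A window has 300 bases, so short distances are partly built into this choice, for members and for the map. The 8 member peaks come from 5 sites, and the difference between the medians was not tested.

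**Figure D5:**
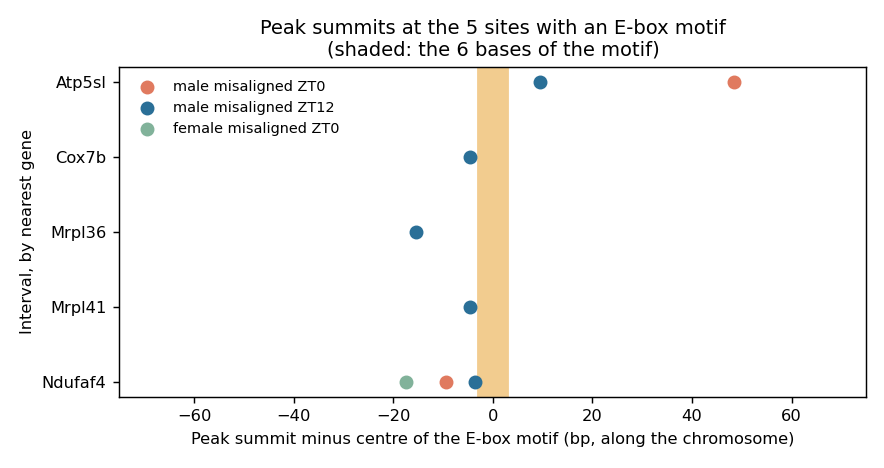
Position in bp of each summit relative to the centre of the nearest E-box (shaded, its 6 bases), for the 5 member sites with an E-box in a promoter window that holds a summit (a point is a peak, by library). The 8 points lie 3.5 to 48.5 bp from the centre on either side, beside a median of 27.5 bp over all 700 such peaks of the map.

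Promoters of these families are known for motifs of factors other than BMAL1, and these were counted in the same windows on both strands. The YY1 motif AAGATGGC was in 5 of the 27 member windows (18.5%), in 15.9% of the family genes without a peak and in 3.57% of all protein-coding genes. It was found at Atp5j, Atp5sl, Mrpl36, Ndufb8 and Ndufs6. The 10-base palindromic motif of NRF1 was in 3 member windows (11.1%), those of Cox6a1, Mrpl39 and Ndufaf4, against 5.30% and 1.47%. The GABPA motif CCGGAAGT was in 1 member window (3.70%), that of Mrpl48, against 15.2% and 5.69%. For YY1 and NRF1 the families as a whole stood above all genes, with or without a BMAL1 peak. Median GC content was 61.0% in member windows, 58.5% in family genes without a peak and 56.3% in all genes.

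Other genes of the same pathways were counted from lists that do not use the name rule. Beside each count stands the same background: 16.3% of all protein-coding genes were nearest to a peak in at least 1 library, and 13.3% in the longest list, that of misaligned males at ZT12. The lists are short, and their counts are a description. Of 9 further complex I assembly factors 2 were nearest to a peak: Ecsit (127 bp), called in the misaligned males at ZT0 and ZT12 and the misaligned females at ZT0 with -log10 q of 5.14, 9.83 and 6.86, and Tmem186 (291 bp), called in male misaligned ZT12 with 8.86. Of 8 complex III partners 4 were, led by the assembly factors Uqcc3 (121 bp, -log10 q 7.67 in male misaligned ZT0 and 3.19 in male misaligned ZT12) and Uqcc2 (137 bp, 4.45 in female misaligned ZT0). Of 14 complex IV assembly factors 4 were, led by Coa7 (-33 bp, 11.7 in male misaligned ZT12 and 9.74 in female misaligned ZT0) and Coa4 (-132 bp, 7.87 in male misaligned ZT12). None of 8 complex V partners was. None of these 4 lists had a call in a control library or in female misaligned ZT12.

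Mitochondrial transcription and translation factors had 3 of 25 genes nearest to a peak, all in the misaligned males at ZT12. The highest were Tfb1m, a ribosomal RNA methyltransferase of the mitochondrion (204 bp, -log10 q 5.88), and Tufm, its elongation factor (-4698 bp, 5.28). Mitochondrial import had 7 of 30, led by the chaperonin Hspd1 (58 bp), with -log10 q of 11.5 and 22.8 in misaligned males at ZT0 and ZT12 and 21.5 in misaligned females at ZT0. The matrix chaperone Hspa9 (-3049 bp) had 8.53, 17.1 and 7.37 in the same libraries. The citric acid cycle list, which includes pyruvate entry, had 9 of 19, of which 6 within 10 kb of the TSS. Pyruvate carboxylase, Pcx, had 2 peaks in male misaligned ZT12 (-5589 and -23547 bp, -log10 q 16.9 and 14.4), and Ogdh (258 bp) had 13.8 there and 6.18 in female misaligned ZT0. These 3 lists had no control call.

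Calls in control libraries were found in the regulators. Of 14 regulators of mitochondrial biogenesis 8 were nearest to a peak (6 within 10 kb, beside 16.3% of all protein-coding genes at any distance). In each male control library 2 were, Esrra and Ppara, where 1.08% (ZT0) and 0.717% (ZT12) of all protein-coding genes were. Esrra, the nuclear receptor ERR alpha that drives respiratory chain genes, had a peak at -392 bp in 6 libraries, with -log10 q of 9.36 (control) and 17.3 (misaligned) in males at ZT0, and 4.36 (control) and 46.9 (misaligned) in males at ZT12. In misaligned females it was 28.6 at ZT0 and 18.8 at ZT12, and no call was made in control females. Ppara, the fatty acid receptor PPAR alpha, named here for its control calls after its values were seen, had a peak at -221 bp in the same 6 libraries, with -log10 q of 18.8 in control males at ZT0 and 14.2 at ZT12. Nampt, the NAD salvage enzyme, had a peak at -237 bp in 4 misaligned libraries, from 12.0 in female misaligned ZT12 to 41.3 in male misaligned ZT12. In the list of fusion, fission and mitophagy genes 3 of 14 were nearest to a peak. Bnip3, a mitophagy receptor, had a peak at -61 bp in all 8 libraries, with -log10 q from 12.1 in female control ZT0 to 131 in male misaligned ZT12. Mfn1, a mitofusin, had up to 7.25, in male misaligned ZT12. Of all genes in these lists Bnip3 was the only one called in all 8 libraries, and among the respiratory chain and ribosome genes only the Ndufa6 promoter was called in a control library at all.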

How the data were processed

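BMAL1 chromatin immunoprecipitation of pooled mouse liver gave 8 deposited peak lists, 1 per library. The submitters' processing notes name BWA 0.7.17-r1188, MACS2 2.2.7.1 and the GRCm38 build. The cutoff on q, the use of IgG as control, duplicate handling and depth are not given in the sources used here. Per peak, the deposited lists hold a score (10 times -log10 q by the values), the ratio of the summit to local background (fold enrichment), and both -log10 p and -log10 q. The deposited table merges the 9986 peaks into 7043 intervals, flags for each library whether a peak was called, and gives the nearest gene. These calls were checked against the lists (0 differed).

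Summit fragments and local background were recovered from fold and -log10 p (relative tolerance 0.0001) for at least 99.1% of peaks in every list. This recovery was tested on simulated peaks, and the counting of member calls was not tested in this way. Peaks with at least 5 times the lowest background of their list counted as of high background. RefSeq genes and promoter windows (GRCm38.p6) were matched by symbol or synonym. Coordinates are 1-based. Python 3.11.15, pandas 2.3.3 and SciPy 1.17.1 were used.

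Groups came from the labels. The members and gene lists were chosen with earlier results of these data known. The genes named were those called in 2 or more libraries or in a control library, those of the 10 intervals with the highest -log10 q, the 3 highest of each complex and ribosome subunit, and the 2 highest of each other list. Alternatives covered the peak threshold, chromosomes, high background, distance, RefSeq assignment, list length, overlap, measure of strength and motif. A common lower limit of -log10 p and the RefSeq distance were added after seeing the data.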

Additional observations from a re-analysis of the deposited data

How the results depend on the processing

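Of 134 values recomputed under an alternative, 124 stayed and 10 moved. A count stayed if within 1.5 times the count reported, and a share if within its counting interval. A rank stayed if within the standard deviation of the member percentiles in its library. Many of the 124 could not have moved, because a count of 0 stays 0 under a filter that only removes peaks. The tally is therefore not a measure of stability. With a -log10 q of at least 3, member intervals in male misaligned ZT0 numbered 8, and misaligned-only intervals in males at ZT0 numbered 7. With lists of equal length, misaligned-only intervals numbered 1 in males at ZT0, 1 in males at ZT12 and 0 in females at ZT0. With overlap of at least 50% of both peaks required, control-only intervals in males at ZT0 numbered 1, because the Ndufa6 peaks of 296 and 651 bp then no longer counted as shared. Within 1 kb of the TSS, member genes in female misaligned ZT0 numbered 4. At 5 kb in place of 1 kb, 73.7% of members were near the TSS. The rank of the only member peak of male control ZT0 was percentile 59.9 by fold enrichment and 54.6 among peaks within 1 kb of a TSS. With 1 peak there was no spread, so any change in this rank counted as moved.

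No paired analysis was possible because each group has 1 library. Without replicates no count could be set against replicate error, and with 38 intervals shares have wide limits, such as 40.8 to 73.7% around 57.9%. A site not called in a short list was not shown to be unbound: the weakest peaks held 14 to 22 fragments at the summit, and depth is unknown.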
